A study of Rattus norvegicus with 241 samples.

Results

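The cells described here are the fibroblasts of the rat mammary gland that carried transcripts of PI16 or DPP4. They were chosen by UMI counts (unique molecular identifiers, 1 per captured RNA molecule) in unsorted whole-gland single-cell tables: a cell had at least 5 UMIs summed over COL1A1, COL3A1, DCN and PDGFRA, at most 1 UMI summed over PTPRC, PECAM1, RGS5 and KRT14, and at least 2 UMIs summed over PI16 and DPP4. Of 103524 cells, 13252 passed the first 2 parts of this rule and are called gated fibroblasts, and 2450 passed all of it and are called PI16/DPP4 positive fibroblasts. They made up 2.37% of all cells and 18.5% of the gated fibroblasts. PECAM1 had no row in the tables, so 9 of the 10 genes of the rule were read. The fibroblasts with which they are compared, called negative, are the 9703 gated fibroblasts with 0 UMIs of PI16 and DPP4, and 1099 gated fibroblasts with exactly 1 UMI belong to neither class.

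The cells came from 9 female virgin peripubertal outbred Sprague Dawley rats (Hsd:Sprague Dawley SD). A group of 6, TGFBRi rats 1, 2, 4, 6, 11 and 14, received LY2157299 (galunisertib), an inhibitor of the kinase activity of the type I TGFβ receptor, by oral gavage at 75 mg/kg, 2 doses per day for 10 days from about 24 days of age. The other 3, vehicle rats 1, 2 and 4, received the vehicle of carboxymethylcellulose, sodium lauryl sulfate and Povidone on the same schedule. Glands were taken at day 0 after the last dose and dissociated with collagenase, and 1 droplet library was made per animal. The comparison of the 2 treatments asks how the inhibitor changed the gland, and each animal is 1 replicate.

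PI16 is a secreted peptidase inhibitor and DPP4 (CD26) a membrane-bound peptidase that trims dipeptides from chemokines and hormones. Fibroblasts that express them lie in the adventitia around vessels and ducts and in connective-tissue sheaths of many organs, and are known for CD34, CD55, SEMA3C and elastic-fibre proteins such as MFAP5 and FBN1. Fibroblasts inside the tissue are instead known for basement-membrane collagens such as COL15A1 and COL4A1. TGFβ ligands bind a type II receptor that activates the type I receptor, SMAD2 and SMAD3 then carry the signal to the nucleus, and in fibroblasts the pathway is known for raising matrix and contractile genes.

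The number of PI16/DPP4 positive fibroblasts per animal was 175, 288 and 711 in vehicle rats 1, 2 and 4, and 122 to 352 in the TGFBRi rats. Vehicle rat 4 alone gave 29% of them. In that library 30.6% of the cells were gated fibroblasts, against 7.14% to 14.3% in the others, and its positive fibroblasts were the shallowest, with a median of 8421 UMIs per cell. Across animals the median was 8421 to 12204 UMIs per positive cell and 4446 to 6905 per negative cell, so the positive cells, which needed 2 UMIs of a pair of genes, were also the deeper ones. The UMIs of the positive cells summed to 1440458 to 6773237 per animal. Of 97157 distinct cell barcodes, 6127 occurred in more than 1 library (88 to 284 per pair of libraries), and 2 barcodes marked positive fibroblasts in more than 1. At the edge of the rule, 478 of the 2450 cells had exactly 2 UMIs of PI16 and DPP4, and 18 had a fibroblast sum of 5 to 9.

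The fibroblast label was checked against marker genes. COL3A1 was found in 100% of the positive cells of each rat and DCN in 98.3% to 100%, both of which the rule had used. Among fibroblast markers outside the rule, MFAP5 was found in 95.4% to 98.3% of positive cells, 56.9% to 67.5% of negative fibroblasts and 0.85% to 3.73% of all other cells. DPT, a dermatopontin of the collagen matrix, was found in 94.3% to 99.5% of positive cells and 70.1% to 82.5% of negative fibroblasts. CD34 was found in 47.5% to 62.2% of positive cells and 9.1% to 14.1% of negative fibroblasts. Detection of other general fibroblast markers varied, with COL1A2 in 45.7% to 81.8% of positive cells, THY1 in 53.2% to 73.7%, FBLN1 in 27.9% to 58.3% and TCF21 in 0% to 1.71%. PI16 itself was found in 65.4% to 88% of positive cells against 1.12% to 4.25% of other cells, and DPP4 in 53.7% to 86.9% against 1.56% to 4.82%. Markers of other cell types were not absent. EPCAM, an epithelial adhesion molecule, was found in 1.95% to 13.7% of positive cells and 22.9% to 43.3% of other cells, and PTPRC (CD45), which the rule limited, in 0.54% to 5.14% against 20.6% to 48.8%. Some listed markers of other types were found in more of the positive cells than of the other cells, such as ABCC9 of the mural list in 26.9% to 51.4% against 1.21% to 9.24%, KCNJ8 of the same list in 10.3% to 40.3% against 1.1% to 6.20%, the globin HBA-A2 in 4.1% to 19% against 0.96% to 3.79% and CD52 of the leukocyte list in 1.14% to 3.98% against 0.24% to 1.14%.

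Some marker sums of other cell types differed between the treatments within the positive cells. The luminal list (7 genes) summed to 1139, 361 and 463 CPM (the UMIs of a gene over all UMIs summed in the same cells of a rat, on the usual per-million scale) in vehicle rats 1, 2 and 4, and to 32.6 to 454 CPM (median 130) in the TGFBRi rats. The endothelial list (7 of 8 genes in the tables) summed to 59.96, 12.8 and 33.4 CPM against 2.61 to 21.0 CPM. The macrophage list (7 genes) summed to 19.7, 13.4 and 223 CPM against 6.25 to 119 CPM, with overlapping ranges. The fibroblast list (19 of 20 genes in the tables) summed to 23155, 25237 and 28706 CPM against 26838 to 29431 CPM. Summed levels ran from 6.20 to 13.1 CPM in vehicle and 1.30 to 15.3 CPM in TGFBRi rats for the basal list (6 genes). They were 76.2 to 129 against 124 to 158 CPM for the mural list (7 genes) and 128 to 221 against 47.6 to 436 CPM for the leukocyte list (10 genes). They were 17.9 to 27.5 against 11.1 to 18.8 CPM for the Schwann list (5 genes) and 301.0 to 1471 against 60.6 to 3235 CPM for the milk list (7 genes). They were 0.298 to 1.92 against 0 to 1.39 CPM for the adipocyte list (4 genes), 8.05 to 71.8 against 6.94 to 30.8 CPM for the red cell list (4 of 5 genes) and 0.894 to 4.58 against 0 to 0.582 CPM for the mesothelial list (2 of 4 genes). LEP, ALAS2 and WT1 were at 0 UMIs. The part of these transcripts in the results below was not tested, beyond the repeats without cells holding other-cell transcripts. Those repeats left out cells with a UMI of KRT5, KRT8, KRT18, EPCAM, CDH5, CLDN5, CD74, LAPTM5, TYROBP or NOTCH3. They used no gene of the milk, macrophage, Schwann, adipocyte, red cell or mesothelial lists.

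**Figure D1:**
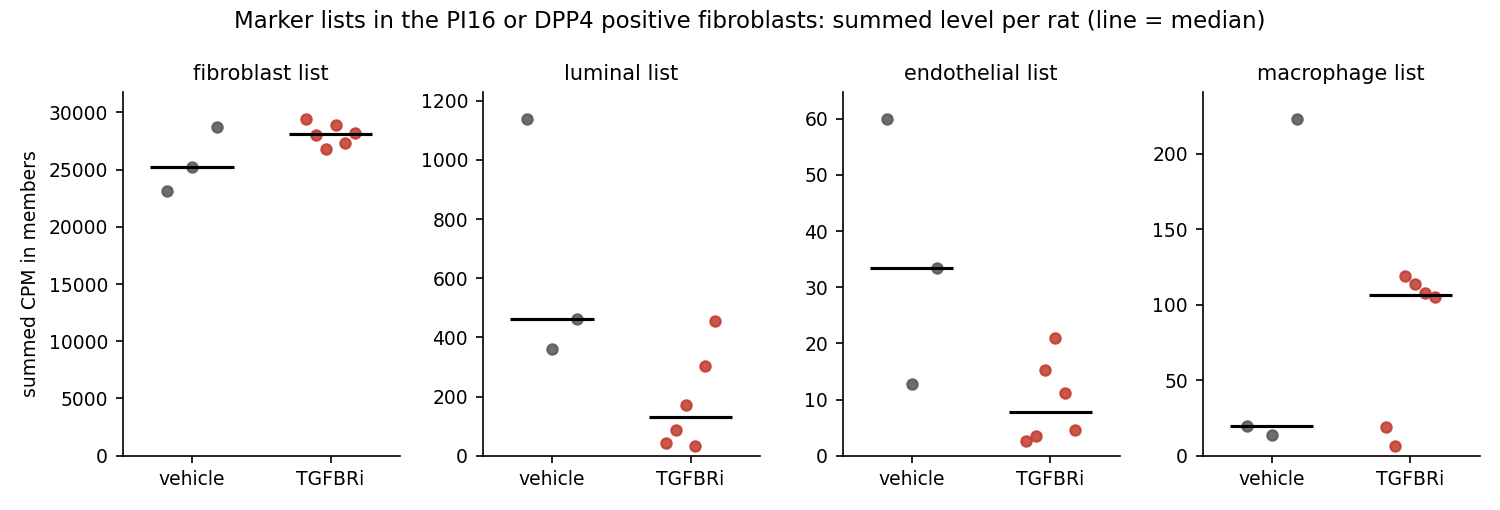
Summed CPM of 4 marker lists in the PI16/DPP4 positive fibroblasts, 1 point per rat (3 vehicle, 6 TGFBRi) and a line at the group median. The fibroblast list sits between 23155 and 29431 CPM in all 9 rats, while the luminal and endothelial lists tend to be lower in the TGFBRi rats with overlapping ranges.

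Several transcripts that go with PI16 and DPP4 changed by degrees with the number of their UMIs. CD55, which protects cells from complement, had a median of 22.8 CPM over the 9 rats in gated fibroblasts with 0 UMIs of PI16 and DPP4, 60.4 CPM with 1 UMI, 96.02 CPM with 2 and 186 CPM with 3 or more. PCSK6, a proprotein convertase, had 6.90, 19.4, 48.01 and 112 CPM in the same order. SEMA3C, a secreted guidance factor, had 129, 224, 357 and 677 CPM, and MFAP5 had 688, 1244, 1724 and 3570 CPM. COL15A1 went the other way, with 242, 198, 174 and 67.4 CPM, as did SPARCL1, a matricellular protein, with 589, 503, 421 and 151 CPM. For these 6 genes, cells with 2 UMIs lay between those with 0 and those with 3 or more. Other genes did not follow. GPC3, a proteoglycan of the cell surface, had 168, 249, 253 and 187 CPM, and TNFAIP6, of the adventitial list, 1433, 1440, 1363 and 1181 CPM. These classes were cut by UMIs in the same cells, so the values are a description with no test.

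**Figure D2:**
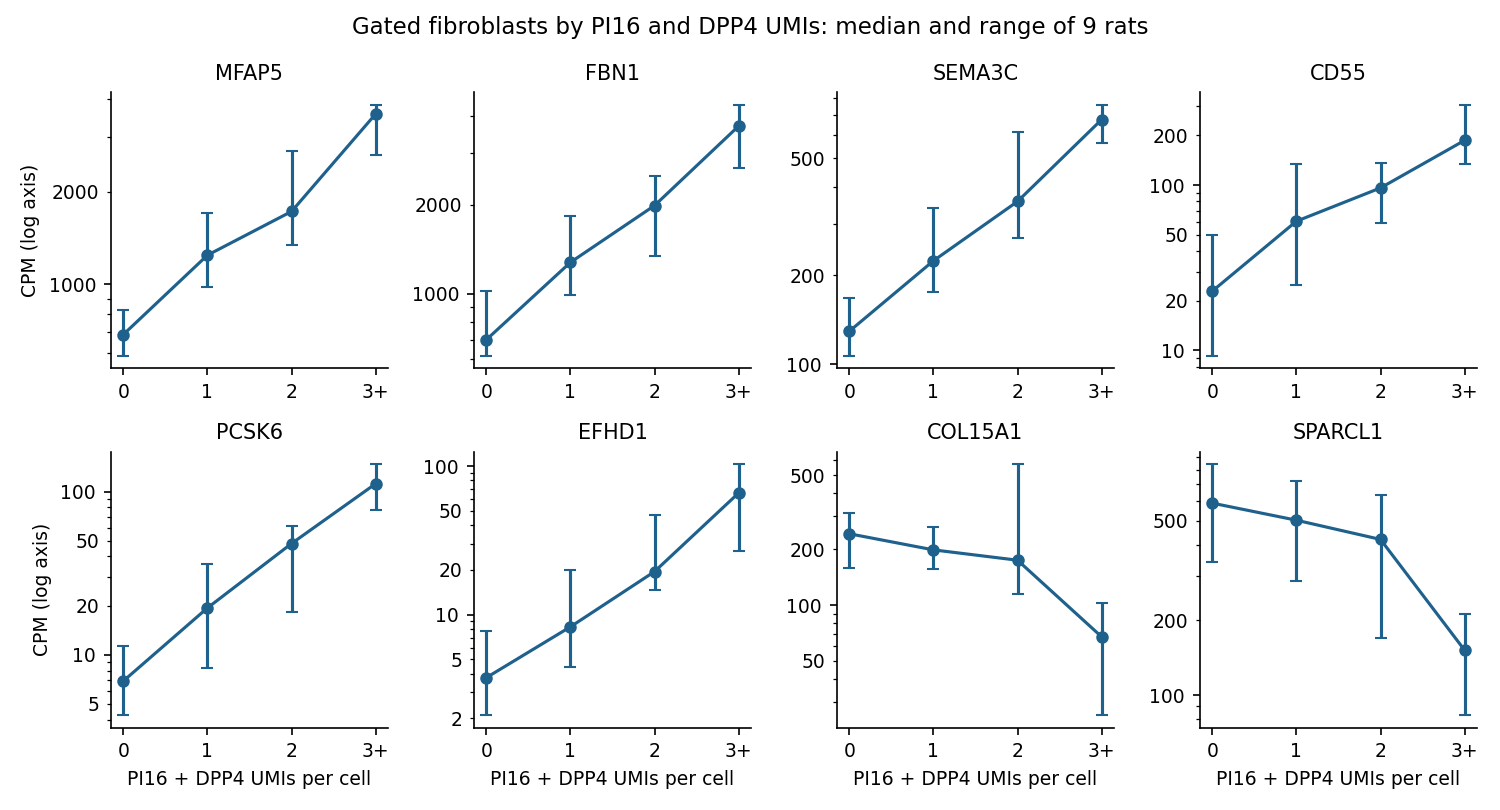
CPM (log axis) of 8 genes in gated fibroblasts grouped by their UMIs of PI16 and DPP4 (x axis: 0, 1, 2, 3 or more), as the median of 9 rats with bars from the lowest to the highest rat. The 6 genes of the adventitial list rise by steps from 0 to 3 or more UMIs (CD55 from 22.8 to 186 CPM), and COL15A1 and SPARCL1 fall.

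Within the positive fibroblasts, 465 cells had UMIs of PI16 alone, 679 of DPP4 alone and 1306 of both. Cells with DPP4 alone numbered 21 in vehicle rat 1, 22 in TGFBRi rat 1 and 21 in TGFBRi rat 2, and up to 231 in vehicle rat 4. The share with PI16 alone was 46.3%, 19.4% and 15.8% in vehicle rats 1, 2 and 4 and 13.1% to 27.9% in the TGFBRi rats. Cells with PI16 alone had fewer UMIs than cells with DPP4 alone, and than cells with both, in 9 of 9 rats. Since a cell with few UMIs can miss a transcript, PI16 alone and DPP4 alone are classes of detection and not of expression. The 5938 genes compared had a mean of at least 10 UMIs per rat in at least 1 of the 2 classes. A gene could thus enter through the class where it was high, and the counts are a description with no test. Of these genes 442 (7.44%) differed in the same direction in 9 of 9 rats, 187 higher with DPP4 alone and 255 higher with PI16 alone. Cells with both transcripts had a median level nearer to that of DPP4 alone for 179 of the 187 genes (95.7%) and for 241 of the 255 (94.5%).

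The genes named for these classes were chosen after their values were seen. CXCL14, a chemokine, had 169 to 1363 CPM (median 427) with PI16 alone, 2.37 to 89.8 CPM (median 29.4) with both and 0 to 56.2 CPM (median 8.32) with DPP4 alone. A CXCL14 UMI was found in 26.5% to 55.9% of the cells with PI16 alone, 1.37% to 6.52% of those with both and 0% to 18.2% of those with DPP4 alone, beside 23.7% to 44.1% of negative fibroblasts and 3.45% to 8.19% of cells outside the gate. The level with PI16 alone reached 1363 CPM, above the highest of 799.9 CPM in the negative fibroblasts, and the ranges overlapped. CRABP1, which binds retinoic acid in the cytoplasm, had medians of 201, 11.5 and 12.5 CPM with PI16 alone, both and DPP4 alone. GAP43, a growth-cone protein, went the other way with 36.6, 246 and 204 CPM, and the receptor tyrosine kinase TEK with 9.55, 64.5 and 50.1 CPM.

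Some genes were high with DPP4 alone and low with both. APOD, a lipid carrier of the lipocalin family, had a median of 4.72 CPM with PI16 alone, 2.97 CPM with both and 1816 CPM with DPP4 alone, and its UMIs were found in 1.64% to 42.9% (median 7.48%) of the cells with DPP4 alone. THBS4, a matrix thrombospondin, had 0, 6.43 and 176 CPM. A THBS4 UMI was found in 1.64% to 52.4% (median 7.48%) of the cells with DPP4 alone, so in most rats a small share of them carried either gene. In vehicle rat 1 and TGFBRi rats 1 and 2 these shares rest on 21 or 22 cells. Of the 26 measured genes of the adventitial list, 7 were higher with DPP4 alone in 9 of 9 rats (PCSK6, SEMA3C, WNT2, MFAP5, EMILIN2, ANXA3, SCARA5) and TNFAIP6 was lower, with a list median log2 difference of 0.68 beside -0.03 over all genes compared. Of 20 measured TGFβ targets, 9 were lower with DPP4 alone, PMEPA1 and TNC among them, and FN1 was higher, with a list median of -1.24. Over all 5938 genes compared, 187 were higher and 255 lower with DPP4 alone in 9 of 9 rats.

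**Figure D3:**
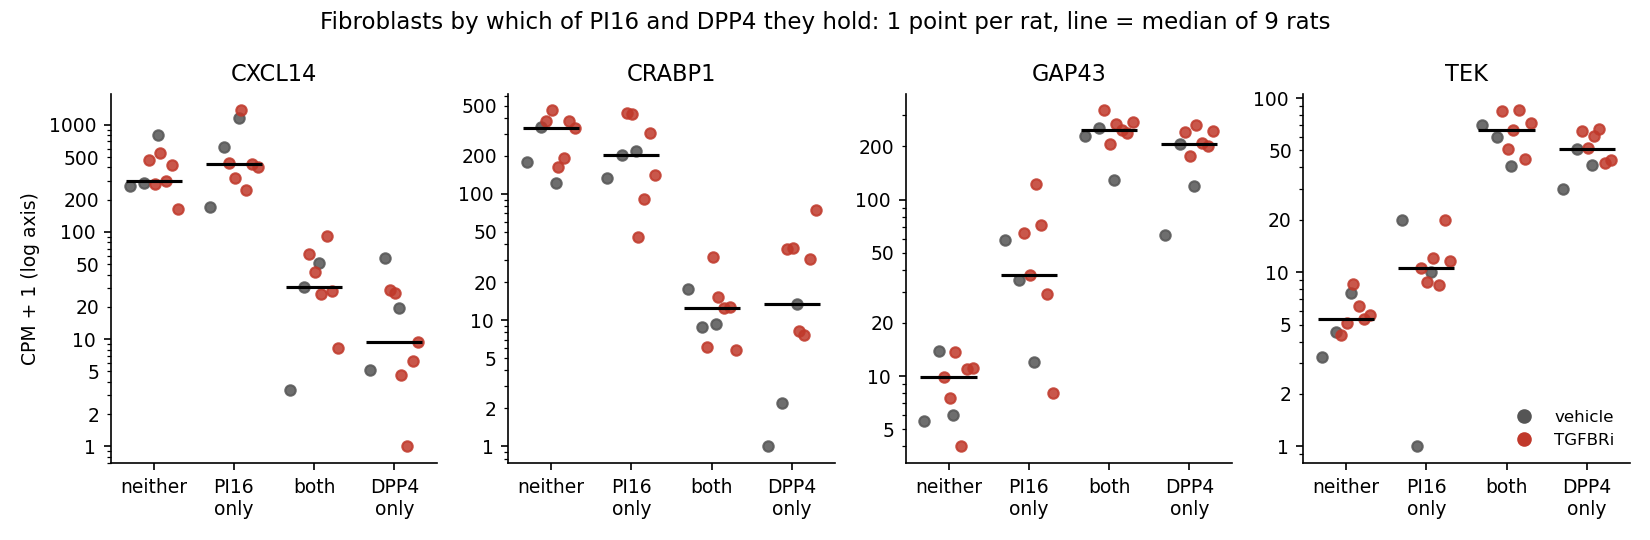
CPM + 1 (log axis) of CXCL14, CRABP1, GAP43 and TEK in gated fibroblasts with neither transcript, PI16 alone, both, or DPP4 alone; each point is 1 rat (grey vehicle, red TGFBRi) and the line is the median of 9 rats. CXCL14 and CRABP1 are high in the first 2 classes and low in the last 2, and GAP43 and TEK are low, then high.

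Against the negative fibroblasts, the positive cells had more transcript of adventitial genes and less of type IV and XV collagens and of contractile and Schwann cell genes. The classes were cut in the same cells and the positive cells were deeper, so these values too describe what goes with the rule and no p-value is given. In the edgeR fit 47.6% of 15525 genes outside the rule had an adjusted p of 0.1 or less, a background share that is no test of the classes. Of these genes, 8.89% were higher and 13.2% lower in the positive cells in 9 of 9 rats. The median log2 difference over all these genes was -0.13. In the adventitial list, 21 of 27 genes were higher in 9 of 9 rats and 0 were lower, with a median log2 difference of 1.79. In this comparison with the negative fibroblasts, levels of single genes are CPM scaled over both classes (TMM), so they differ from the unscaled values above. MFAP5, a microfibril protein, had 2547 to 4454 CPM (median 3325) in the positive and 519 to 903 CPM (median 643) in the negative cells (log2 difference 2.44). FBN1, the fibrillin of the same microfibrils, had 2584 to 4047 CPM (median 3597) against 589.9 to 899.7 CPM (median 652) (2.37). CD55 had 133 to 283 CPM (median 189) against 8.33 to 46.7 CPM (median 21.3) (3.14), and the 2 classes did not overlap for any of these 3 genes. EFHD1, a mitochondrial calcium sensor, had a log2 difference of 4.05, PCSK6 of 4.01, the ferritin receptor SCARA5 of 3.05, SEMA3C of 2.45 and CD34 of 2.20. After thinning the cells with at least 1300 UMIs to that depth these stayed close, with 3.15 for CD55, 3.66 for PCSK6 and 2.45 for SEMA3C. The classes stayed as cut at full depth there, so the part of depth in the cut itself was not tested.

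Matrix genes differed in both directions. Of 20 collagens outside the rule, 6 were higher in 9 of 9 rats (COL8A1, COL1A2, COL14A1, COL5A1, COL5A2, COL6A6) and 6 lower (COL7A1, COL4A1, COL4A2, COL18A1, COL27A1, COL15A1), with a list median of 0.17. COL5A1, of the fibril-forming type V collagen, had 1366 to 2624 CPM (median 1934) in the positive and 631 to 1079 CPM (median 911) in the negative cells. COL4A1, of the basement-membrane type IV collagen, had 179 to 497 CPM (median 303) against 837 to 1742 CPM (median 1402), a log2 difference of -2.08. COL15A1 had 53.1 to 139 CPM (median 83.8) against 154 to 336 CPM (median 228). In the glycoprotein and proteoglycan list 19 of 35 genes were higher and 8 lower (median 0.31), and of its basement-membrane genes NID1, LAMA2, LAMB1 and LAMC1 were higher and NID2 lower. In the list of matrix enzymes and inhibitors 21 of 36 were higher and 6 lower (median 0.59), with PCOLCE2, an enhancer of procollagen cleavage, at a log2 difference of 2.63 and LOX, the enzyme that cross-links collagen and elastin, at 1.85. The list of the other fibroblast program, with COL15A1, PPARG and CXCL12, had 1 of 19 higher (GPC3) and 12 lower (median -1.43). All 12 contractile genes were lower in 9 of 9 rats (median -4.14), with TPM2 (tropomyosin) at 23.5 to 81.3 CPM (median 37.7) against 326 to 1211 CPM (median 530.2). The negative class held transcripts of Schwann and mural cells, whose lists summed to 1349 to 4396 CPM and 284 to 831 CPM there, against 11.1 to 27.5 CPM and 76.2 to 158 CPM in the positive cells, and their part in the differences between the classes was not tested.

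Signalling genes also differed, in both directions. In the list of chemokines and inflammatory mediators 5 of 30 genes were higher in 9 of 9 rats and 12 lower (median -0.71). CXCL14, IL6, IL11 and CXCL12 were among those lower. In the Wnt list 5 of 24 were higher and 5 lower (median -0.63). Among TGFβ ligands, receptors and latency proteins 4 of 24 were higher and 7 lower (median -0.04). PTX3, a soluble pattern-recognition protein, had 297 to 1658 CPM (median 565) against 25.3 to 168 CPM (median 65.5), TNFRSF11B (osteoprotegerin, the decoy receptor of RANKL) 173 to 314 CPM (median 237) against 5.45 to 36.1 CPM (median 12.2), and CCL2, the monocyte chemokine, 5051 to 22636 CPM (median 8020.0) against 2569 to 12559 CPM (median 4239.7), with the ranges of CCL2 overlapping. IGFBP5 was higher with a log2 difference of 1.92, while IGFBP4 (-2.12) and IGFBP7 (-2.05), which also bind IGFs or related proteins, were lower. WNT2 had 2.46, the TGFβ-binding LTBP1 2.12 and the estrogen receptor ESR1 1.12, each higher in 9 of 9 rats. PMEPA1, a TGFβ target that limits the pathway, was lower in 9 of 9 rats (-0.72), and of 26 TGFβ targets 4 were higher (NOX4, LOX, FN1, ELN) and 13 lower, 4 of which (TAGLN, ACTA2, CNN1, TPM1) also stand in the contractile list. Genes named by size alone had large differences at lower levels. GAP43 had 134 to 274 CPM (median 217) against 2.69 to 12 CPM (median 8.41) (log2 difference 4.79), the carbonic anhydrase-related CAR8 101.3 to 177 CPM (median 119) against 3.34 to 7.03 CPM (median 5.10), the chemokine scavenger ACKR4 153 to 397 CPM (median 212) against 5.45 to 21.2 CPM (median 10.0) and the lipid transporter ABCA4 17.6 to 35.9 CPM (median 26.5) against 0 to 1.32 CPM (median 0.806). LECT2, AKR1C3, RGS7, ADAMTS16, HS3ST5 and CBLN2 were the others of the 10 in this direction. In the opposite direction stood, among others, GFAP, BCAS1, MAG, FGF5, KCNK3, SOX2, CNMD, CDH19 and MLIP, several of them genes of glia, and GFAP, BCAS1, MAG and FGF5 were at 0 UMIs in the positive cells.

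The share of PI16/DPP4 positive fibroblasts did not differ detectably between the treatments. They were 1.07%, 2.28% and 6.03% of all cells in vehicle rats 1, 2 and 4 and 1.30% to 2.93% in the TGFBRi rats, so that the vehicle mean of 3.13% ± 2.59 (SD, n = 3) and the TGFBRi mean of 1.98% ± 0.714 (SD, n = 6) differed by -1.14 percentage points (exact permutation test over the rats, two-sided, p = 0.333, adjusted over 5 shares 0.551). Without vehicle rat 4 the difference was 0.31 points. Among gated fibroblasts they were 14.9%, 19.3% and 19.7% in vehicle and 13.4% to 21.9% in TGFBRi rats, with means of 18.0% ± 2.66 and 17.9% ± 3.23 and a difference of -0.06 points (exact permutation test, adjusted p = 0.988). The share with a PI16 UMI was 78.1% ± 10.3 in vehicle and 73.4% ± 8.05 in TGFBRi rats, and that with a DPP4 UMI 72.8% ± 16.7 and 81.2% ± 6.27. These 2 shares, counted among the 5 in the adjustment, are a description, since the sum of the 2 genes chose the cells. At least 2 UMIs of the G2/M list were found in 21.97% ± 6.93 and 16.9% ± 3.31 of the positive cells (exact permutation test, p = 0.155, adjusted p = 0.551). After thinning to 1300 UMIs the positive cells were picked anew from the thinned counts, which left 43 of 175 in vehicle rat 1. The G2/M shares then fell to 0% to 6.22% in vehicle and 0% to 3.03% in TGFBRi rats. The difference of -1.40 points there stands on this lower base, so it does not show that equal depth removed the difference. With 84 splits the smallest two-sided p was 0.0119. In a suspension, a change in how many cells of a type were freed and captured cannot be told apart from a change in the gland.

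**Figure D4:**
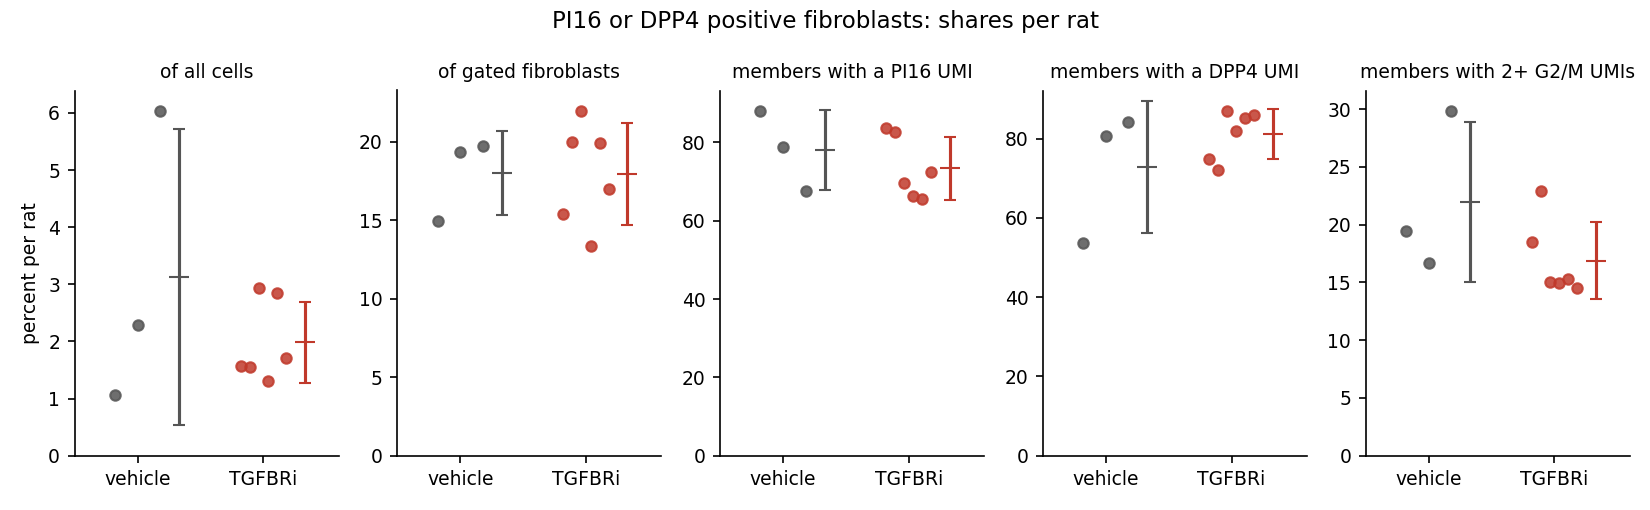
Percent per rat of 5 shares, with a point for each of 3 vehicle and 6 TGFBRi rats and the group mean ± SD beside them. The ranges of the treatments overlap in all 5 panels, and vehicle rat 4, at 6.03% of all cells, lies above the others in the first.

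TGFBRi treatment changed many genes within the PI16/DPP4 positive fibroblasts. UMIs were summed per rat and compared by edgeR's quasi-likelihood test, and a gene was called where its p, adjusted for 13021 genes after Benjamini and Hochberg, did not exceed 0.1. Of these, 1762 (13.5%) passed, 759 higher (5.83%) and 1003 lower (7.7%) after TGFBRi, and the CPM of 1741 genes (13.4%) did not overlap between the groups. Both criteria held for 1263 genes. Leaving out vehicle rat 4 raised the count to 3540 of 12595 genes (28.1%), and leaving out vehicle rat 1 or 2 lowered it to 972 or 1084. With the cells of at least 1300 UMIs thinned to that depth it was 268, 71 higher and 197 lower. PI16 had 593, 629 and 425 CPM against 385, 463 and 578 CPM and DPP4 137, 308 and 453 CPM against 319, 333 and 369.8 CPM, given as a description, since the sum of these 2 genes chose the cells. In what follows, levels are TMM-scaled CPM, those of vehicle rats 1, 2 and 4 come first and then the lowest, median and highest of the 6 TGFBRi rats.

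Genes of the TGFβ pathway were called in both directions. Of 24 tested TGFβ targets 0 were called higher and 3 lower (median log2 -0.33, beside 0.00 over all genes), a share of 12.5% that is near the 13.5% of all genes called. PMEPA1 had 51.1, 42.3 and 39.3 CPM against 11.6, 15.4 and 31.3 CPM (log2 -1.38, SE 0.252, adjusted p = 0.00729). The groups did not overlap, and the call held in each fit that left out 1 rat. CCN2 (CTGF), a matricellular protein, had 128, 16.9 and 30.8 CPM against 4.87, 6.87 and 33 CPM (log2 -2.41), with vehicle rat 1 far above the others, and without that rat it fell short of the test (log2 -1.18, adjusted p = 0.231). LRRC15, a membrane protein of TGFβ-stimulated fibroblasts, had 22.3, 23.2 and 21.5 CPM against 5.96, 13 and 17.8 CPM (log2 -0.94, adjusted p = 0.0791), and its call ended in 5 of the 9 fits that left out 1 rat (log2 -1.10 to -0.79). Matrix genes of the list with the highest counts did not pass, with a log2 fold change of 0.23 for POSTN, -0.07 for FN1 and -0.01 for ELN. Without vehicle rat 4, where 28.1% of all genes were called, 1 target was called higher and 8 lower (37.5%), and POSTN was the one called higher (log2 0.48).

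Among the SMADs and feedback genes 2 of 16 were called higher and 3 lower (median 0.00; 2 and 5 with a median of -0.28 without vehicle rat 4). That is 31.25% beside 13.5% of all genes, and 43.75% beside 28.1% without that rat. SMAD1, which carries BMP signals, had 50.2, 42.9 and 21.9 CPM against 67.2, 71.9 and 77 CPM (log2 0.93, SE 0.215, adjusted p = 0.0216), with no overlap. SKI, a repressor of SMAD transcription, had a log2 of 0.81 and TGIF1, another such repressor, of -0.86, and BAMBI, a decoy receptor, of -0.85. These calls were less firm: that of SKI ended in 7 of the 9 fits without 1 rat (log2 0.68 to 1.02, and -0.00057 after thinning) and that of BAMBI in 5 (log2 -1.12 to -0.26), and that of TGIF1 without vehicle rat 1 (log2 -0.73) or 2 (log2 -0.61). Among ligands, receptors and latency proteins 3 of 24 were higher and 2 lower (median -0.05), and 5 and 3 without vehicle rat 4, or 20.8% and 33.3% of the list. TGFB2, a ligand, had 27.9, 37.6 and 35.5 CPM against 42.6, 66.9 and 101.3 CPM (log2 1.09, SE 0.25, adjusted p = 0.0211). TGFBR3 (betaglycan), the co-receptor that presents TGFβ2, had 100.8, 113 and 149 CPM against 182, 212 and 248 CPM (log2 0.82, SE 0.162, adjusted p = 0.0105), and in both genes every TGFBRi rat lay above every vehicle rat. ACVR1B, a type I activin receptor, had a log2 of 1.01. INHBA, the activin A subunit, had 30.2, 28.5 and 5.20 CPM against 0.506, 5.03 and 9.22 CPM (log2 -2.10), and FSTL3, which binds activins, a log2 of -1.43. The call of INHBA ended without vehicle rat 1 (log2 -1.76) or 2 (log2 -1.78) and its log2 was 0.0850 in cells holding both PI16 and DPP4, and that of FSTL3 without vehicle rat 1 (log2 -0.76).

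Of 22 collagens tested, where 13.5% of all genes were called, 1 was called higher (COL6A6, log2 0.76, whose call ended in 8 of the 9 fits without 1 rat, with log2 0.48 to 1.15) and 0 lower, with a median of 0.07. COL1A1 had 39086, 71165 and 106647 CPM against 58004, 74427 and 90825 CPM, so that the vehicle rats spanned the TGFBRi rats (log2 0.07). The log2 fold change was 0.08 for COL3A1 and 0.04 for COL5A1. COL1A1 and COL3A1 belong to the rule that picked the cells and are among the 22, so their values and their part in the counts of the list are a description. The same holds for other genes of the rule in other lists, such as DCN and PDGFRA. Without vehicle rat 4 the count became 7 higher and 0 lower, a share of 31.8% near the 28.1% of all genes in that fit, with COL3A1 at 0.47.

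Of the other matrix genes a few passed. In the glycoprotein and proteoglycan list 4 of 35 were called higher and 3 lower (median 0.10). That is 20% of the list beside 13.5% of all genes. FBLN1, a fibulin of basement membranes and elastic fibres, had 213, 156 and 130.3 CPM against 52, 72.6 and 115 CPM (log2 -1.11, SE 0.232, adjusted p = 0.0131). NID2, a basement-membrane linker, had 45, 36.6 and 44.3 CPM against 47.9, 81.4 and 94.6 CPM (log2 0.82), with a call that ended without vehicle rat 2 (log2 0.73). LAMB1 (log2 0.34), SVEP1 (0.55), ECM1 (-0.50) and FMOD (-2.02) passed with calls that ended in 5 to 8 of the 9 fits without 1 rat, in which log2 was 0.30 to 0.37 for LAMB1, 0.44 to 0.76 for SVEP1, -0.65 to -0.29 for ECM1 and -2.48 to -0.65 for FMOD. Among matrix enzymes and inhibitors 2 of 36 were called higher and 8 lower (median -0.04), and without vehicle rat 4 7 of 35 higher and 8 lower (median 0.15). That is 27.8% beside 13.5% of all genes, and 42.9% beside 28.1% without that rat. TIMP1, which inhibits matrix metalloproteinases, had 2314, 1978 and 1828 CPM against 855, 968 and 1356 CPM (log2 -1.02, SE 0.147, adjusted p = 0.00234). ADAMTS4, which cleaves aggrecan and versican, had 225, 151 and 175 CPM against 70.5, 105.4 and 115 CPM (log2 -0.93), and ADAMTS1, which also cleaves versican, had 281, 288 and 243 CPM against 306, 406 and 439 CPM (log2 0.54). LOXL4, a lysyl oxidase, was higher (log2 1.20) and the secreted protease HTRA3 lower (-0.64), the latter not without vehicle rat 1 (log2 -0.64) or 2 (log2 -0.40).

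Of the 26 tested genes of the adventitial program 5 were called higher and 1 lower (median 0.09). That is 23.1% beside 13.5% of all genes. Without vehicle rat 4 the count was 10 higher and 5 lower (57.7% beside 28.1%). SCARA5 had 93.3, 169 and 160.5 CPM against 193, 219 and 258 CPM (log2 0.66). ACKR3, a scavenger receptor of CXCL12, had 401, 481 and 534 CPM against 581, 656 and 804 CPM (log2 0.49). CD248 (endosialin) had 41.8, 103.3 and 149.9 CPM against 153, 182 and 197 CPM (log2 0.86). CD55 had 258, 258 and 181 CPM against 124.9, 162 and 196 CPM (log2 -0.51). Each of these calls depended on single rats: that of SCARA5 ended without vehicle rat 1 (log2 0.44), that of ACKR3 without vehicle rat 1 (log2 0.38) or 2 (log2 0.50), that of CD248 in 7 of the 9 fits (log2 0.51 to 1.28) and that of CD55 in 5 (log2 -0.68 to -0.43). MFAP5 (log2 -0.03), FBN1 (0.29) and DPT (-0.12), which have the highest counts of the list, did not pass, and FBN1 did without vehicle rat 4 (log2 0.35). Of the other fibroblast program 0 of 19 were higher and 2 lower (median 0.04), of the general fibroblast genes 0 of 19 were higher and 1 lower (FBLN1, median -0.03), and of 12 contractile genes 0 passed in either direction (median -0.29). Without vehicle rat 4 these lists had 2 higher and 4 lower, 4 higher and 1 lower, and 1 higher and 1 lower in the same order.

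The list of chemokines and inflammatory mediators had more genes called lower than any other list. Of 29 tested genes 2 were called higher and 15 lower (median -0.81), against 5.83% higher and 7.7% lower over all genes. CXCL1, a neutrophil chemokine, had 11110.0, 12382 and 4522 CPM against 1578, 2623 and 3783 CPM (log2 -1.78, SE 0.291, adjusted p = 0.00442), and every TGFBRi rat lay below every vehicle rat. CCL2 had 13688, 20948 and 7206 CPM against 4740.4, 6972 and 7858 CPM (log2 -1.09), with vehicle rat 4 inside the TGFBRi range, and without vehicle rat 2 it did not pass (log2 -0.68, adjusted p = 0.14). PTX3 had a log2 of -0.94, with a call that ended in 7 of the 9 fits (log2 -1.29 to -0.38). The cytokine IL6, named after its values were seen, had 243, 344 and 213 CPM against 23.2, 54.9 and 76.5 CPM (log2 -2.32, SE 0.255, adjusted p = 0.000395), with no overlap. IL11, a cytokine of the same receptor family, had 24.1, 8.45 and 6.10 CPM against 0.497, 1.02 and 3.36 CPM (log2 -3.12), but its log2 was 0.99 among cells holding both PI16 and DPP4, a subset chosen after seeing the data. CX3CL1, the membrane-bound chemokine of monocytes, had 21.4, 4.70 and 43.4 CPM against 1.01, 1.90 and 2.98 CPM (log2 -3.54), and without vehicle rat 4 its log2 was -2.64. CCL11 (eotaxin) went the other way, with 13, 5.01 and 2.51 CPM against 13.5, 26.1 and 34.7 CPM (log2 1.98), as did the interferon-induced CXCL10 (log2 1.23), whose call ended without vehicle rat 1 (log2 1.13). The list had 2 called higher and 17 lower of 28 (10.7% of all genes called in that fit) without cells holding a UMI of 10 marker genes of other cell types. It had 4 higher and 18 lower of 28 (28.1% of all genes) without vehicle rat 4, 1 higher and 13 lower of 29 (11.04% of all genes) in cells with at least 3 UMIs of PI16 and DPP4, and 1 higher and 10 lower of 28 (7.56% of all genes) in cells holding both. The 3 vehicle rats differed among themselves in these genes, and the macrophage marker sum in the same cells was 19.7 and 13.4 CPM in vehicle rats 1 and 2 and 223 CPM in vehicle rat 4.

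**Figure D5:**
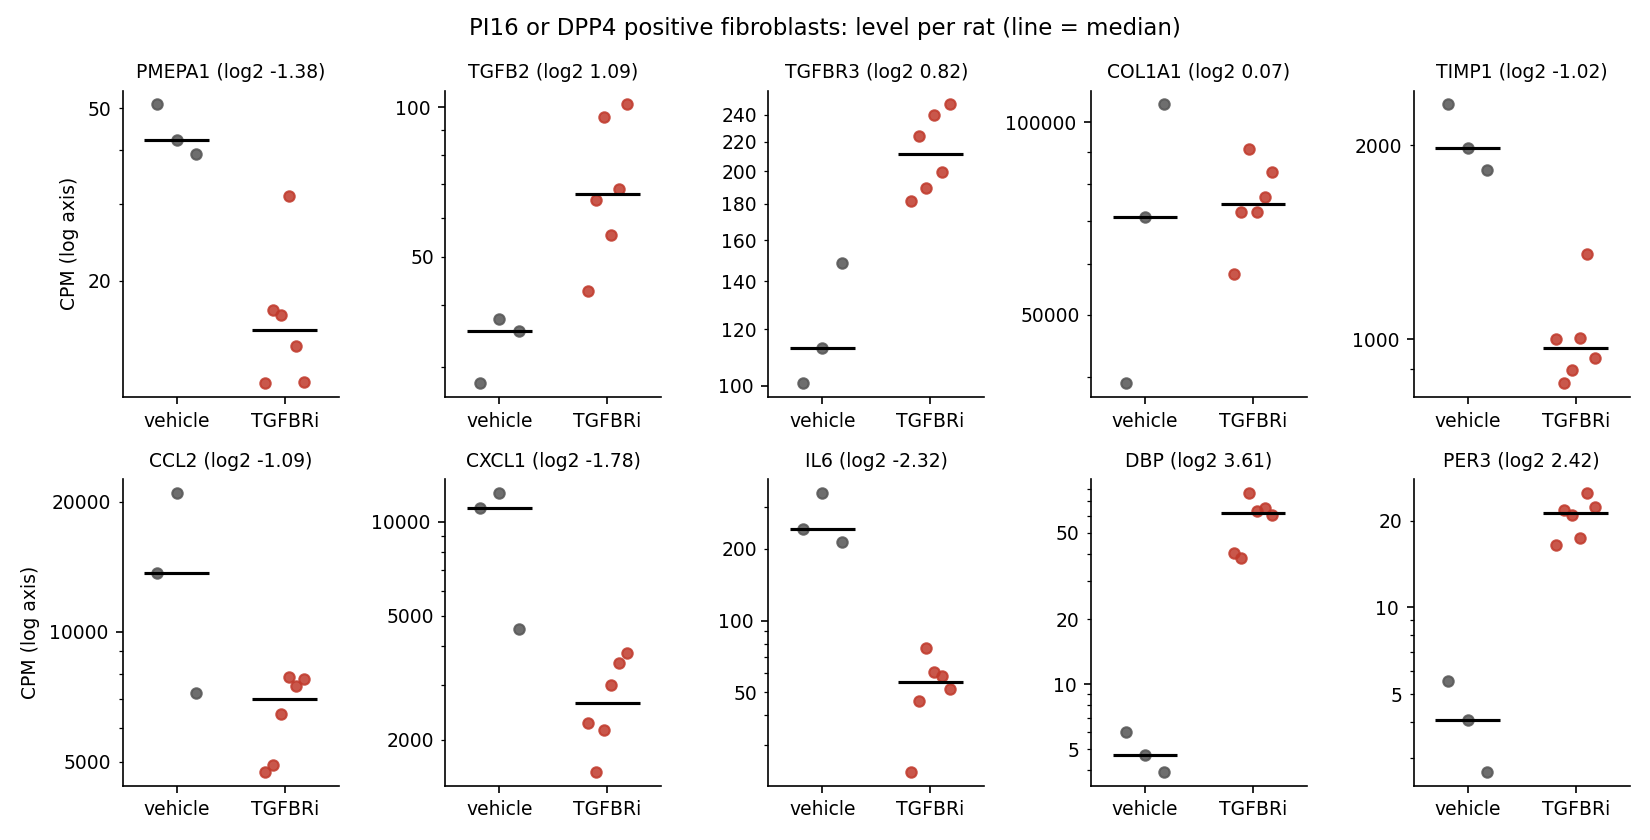
CPM (log axes) of 10 genes in the positive fibroblasts, 1 point per rat and a line at the group median, with the log2 fold change of TGFBRi against vehicle above each panel. PMEPA1, TIMP1, CXCL1 and IL6 are lower and TGFB2, TGFBR3, DBP and PER3 higher in all 6 TGFBRi rats than in any vehicle rat, whereas COL1A1 and CCL2 overlap.

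Immediate-early genes had 6 of 20 called higher and 2 lower (median 0.21), beside 5.83% higher and 7.7% lower over all genes. BTG2, an antiproliferative factor, had 255, 183 and 480.3 CPM against 622, 839 and 993 CPM (log2 1.42). KLF4, a zinc-finger transcription factor, had 395, 432 and 599.5 CPM against 693, 784 and 918 CPM (log2 0.75). FOS had 454, 303 and 387 CPM against 499, 857 and 896 CPM (log2 0.99). None of the 3 overlapped. IER3, a stress-response gene of the same list, was lower, with 3016, 3515 and 930.2 CPM against 408, 532 and 642 CPM (log2 -2.25, SE 0.293, adjusted p = 0.00139). KLF2 was called lower (log2 -0.57), with a call that ended in 6 of the 9 fits without 1 rat (log2 -0.72 to -0.24). Heat-shock genes had 0 of 10 called higher and 4 lower (median -0.58), a share of 40% beside 13.5% of all genes. HSPB1 had 695, 865 and 5827 CPM against 316, 448 and 796 CPM (log2 -2.27), and vehicle rat 4 stood far above all others. Without it the log2 was -0.62 (adjusted p = 0.14) and the list had 1 called higher and 0 lower with a median of 0.16, where 28.1% of all genes were called. The G2/M list behaved alike, with 0 of 35 higher and 2 lower (CKS2, log2 -1.30, and CENPE, -1.82; median -1.01), and without vehicle rat 4 with 2 higher and 0 lower (median 0.29).

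In the other signalling groups 1 to 4 members per list passed, and the share over all genes was 13.5%. Hormone receptors had 2 of 5 called higher and 0 lower (median -0.03), among them ESR1 with 17.2, 17.5 and 14 CPM against 22.6, 26.2 and 36.2 CPM (log2 0.78, SE 0.196, adjusted p = 0.0311). In the IGF axis 2 of 12 were higher and 0 lower (median -0.22): IGFBP2, an IGF-binding protein, had 29.3, 21.3 and 16.1 CPM against 62.6, 81.2 and 170.0 CPM (log2 2.12, SE 0.333, adjusted p = 0.00384), and the mannose 6-phosphate receptor IGF2R a log2 of 0.47, not called without vehicle rat 1 (0.35). The BMP and ID list had 1 of 20 higher (BMP3, log2 0.68, not called without vehicle rat 1, 0.62) and 2 lower (median -0.04), BMP2 (-0.95, whose call ended without vehicle rat 4, at -0.41, and TGFBRi rats 1 and 4) and the BMP antagonist GREM1, with 8.82, 1.25 and 3.05 CPM against 0, 0.395 and 1.12 CPM (log2 -3.19). The Wnt list had 3 of 24 higher and 0 lower (median 0.16), WNT11 (0.74), the receptor FZD2 (0.89) and the co-receptor LRP6 (0.66), and the call of FZD2 ended without vehicle rat 1 (log2 0.75), that of WNT11 without vehicle rat 1 (0.67) or 2 (0.62) and that of LRP6 in 7 of the 9 fits (0.47 to 0.87). Growth factors and receptors had 2 of 28 higher and 2 lower (median -0.10), with FGF10 (1.01), ANGPT1 (1.07) and GAS6 (-0.68) among those called in the full set and lost in 4 to 8 of the 9 fits, in which log2 was 0.83 to 1.26 for FGF10, 0.89 to 1.43 for ANGPT1 and -0.94 to -0.41 for GAS6. The remaining lists had 1 to 3 calls each: complement 0 of 14 higher and 2 lower (median -0.16), semaphorins and axon guidance 0 of 22 and 1 (0.08), retinoid genes 0 of 11 and 1 (0.02), glucocorticoid-responsive genes 2 of 10 and 0 (0.27), interferon genes 2 of 16 and 1 (0.20) and S-phase genes 1 of 28 and 0 (0.09). Vehicle rat 4 moved many of these counts. Without it, where 28.1% of all genes were called, the BMP and ID list had 6 higher and 3 lower of 20, the IGF axis 3 and 3 of 12 and growth factors 5 and 8 of 28. The Wnt list had 3 and 1 of 24 and hormone receptors 2 and 1 of 5. Complement then had 4 higher and 2 lower of 13 with a median of 0.19, semaphorins 1 and 4 of 21, retinoid genes 2 and 3 of 11, glucocorticoid-responsive genes 4 and 2 of 10, interferon genes 5 and 1 of 16 and S-phase genes 6 and 1 of 28 (median 0.52).

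The 10 genes with the largest increase among those called, with no overlap and a mean of at least 20 UMIs per rat, were led by DBP, a transcription factor of the circadian output, with 6.04, 4.70 and 3.94 CPM against 38.2, 61.8 and 76.5 CPM (log2 3.61, SE 0.285, adjusted p = 4.37e-05). PER3, a component of the clock, had 5.57, 4.07 and 2.69 CPM against 16.4, 21.3 and 24.9 CPM (log2 2.42). The membrane mucin MUC13 (log2 2.67), IGFBP2, FAM13A (2.03), CCL11, the LIM-domain cofactor LDB2 (1.92), RFX2 (1.90), a transcription factor of ciliated cells, and TNS2 (1.83), a tensin of focal adhesions with 8.36, 12.5 and 13.3 CPM against 37.2, 40.1 and 48.1 CPM, were among the rest. All 10 calls held in each fit that left out 1 rat, with log2 values of MUC13 from 1.92 to 3.397 and of CCL11 from 1.45 to 2.74.

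The 10 genes with the largest decrease by the same rule held several epithelial genes. KRT7, a keratin of simple epithelia, had 22.3, 13.8 and 21.3 CPM against 0, 0.26 and 1.01 CPM (log2 -5.63, SE 0.423, adjusted p = 4.37e-05). NPPB, the natriuretic peptide BNP, had 1.39, 42.9 and 6.99 CPM against 0, 0.576 and 1.32 CPM (log2 -4.70, and -2.79 without vehicle rat 2). OLR1, the receptor of oxidised LDL, had 119, 16 and 16.9 CPM against 0, 3.14 and 5.27 CPM (log2 -4.05, and -2.49 without vehicle rat 1). SERPINB2, the plasminogen activator inhibitor PAI-2, had 21.8, 87.4 and 6.81 CPM against 0, 1.66 and 4.72 CPM (log2 -3.98, and -2.50 without vehicle rat 2). In NPPB, OLR1 and SERPINB2, but not in KRT7, a single vehicle rat was far above the other 2. IL11 and CX3CL1 are given above. PRSS22 (-3.94, and -2.95 without vehicle rat 1), SPINT1 (-2.83), LYPD3 (-2.76) and VTCN1 (-2.74), of which SPINT1 is an inhibitor of epithelial serine proteases, complete the 10. Luminal markers moved with them in the same cells, with 4 of 7 called lower and 0 higher (median -1.70), among them EPCAM (log2 -2.20), KRT8 (-1.68) and CLDN3 (-1.70). Over all genes 5.83% were called higher and 7.7% lower, the shares beside which this and the marker lists below stand. The call of EPCAM ended without vehicle rat 1 (log2 -1.60), and those of KRT8 and CLDN3 in 5 and 4 of the 9 fits (log2 -2.06 to -1.22 and -2.06 to -1.12), and CLDN3 had 0.209 in cells holding both PI16 and DPP4. Without the 6% of cells with the highest Scrublet doublet scores, PRSS22 had a log2 of -0.863 and LYPD3 of -0.0243, and without cells holding other-cell UMIs PRSS22 had 0.461. Endothelial markers had 3 of 7 called lower (KDR -2.49, FLT1 -1.57, TIE1 -2.03), and the calls of KDR (log2 -1.50) and FLT1 (-1.34) ended without vehicle rat 1 and that of TIE1 in 6 of the 9 fits (log2 -2.57 to -1.21). Of the other marker lists, basal had 0 of 3 higher and 1 lower (median 0.23), milk 1 of 7 and 0 (1.97), mural 1 of 7 and 0 (-0.96), leukocyte 0 of 10 and 0 (-0.32), macrophage 0 of 7 and 0 (-0.52), Schwann 0 of 5 and 0 (-0.81), adipocyte 0 of 2 and 0 (-1.26), red cell 0 of 3 and 1 (-1.45), and mesothelium 0 of 1 and 1 (MSLN). Without vehicle rat 4 the macrophage list had 4 of 7 called higher and 0 lower with a median of 2.71, the mural list 2 of 6 higher and 0 lower with a median of 0.46 and the luminal list 0 higher and 7 lower of 7. In that fit 1593 of all 12595 genes were called higher and 1947 lower.

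The negative fibroblasts of the same rats also changed. There 4896 of 15201 genes (32.2%) were called, from more cells and UMIs per rat. Of the 1762 genes called in the positive cells, 1368 were called in the same direction and 4 in the opposite direction in the negative cells. Of the 20 genes with the largest changes named above, 18 were also called there and 19 had the same sign. Both sets of cells come from the same animals and libraries, so this is no independent repeat. The difference of the 2 responses was tested as an interaction in a joint fit with the rat as a block, on CPM scaled over both classes. It passed for 122 of 15525 genes (0.786%), of which 91 (0.586%) had a more positive and 31 (0.2%) a more negative fold change in the positive cells (34 and 33 after thinning to 1300 UMIs).

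FBLN1 fell in the positive cells, and its response differed between the classes. It had 142 to 233 CPM in vehicle and 55.6 to 123 CPM in TGFBRi rats in the positive cells, against 109.6 to 123 and 100.8 to 239 CPM in the negative cells, where the log2 fold change of 0.38 did not pass (difference -1.48, SE 0.147, adjusted p = 9.42e-05). A further set of genes fell in the negative cells and fell less, or did not pass the test, in the positive ones. ALDH1A3, which makes retinoic acid, had 20.1 to 57.7 CPM in vehicle and 2.30 to 8.87 CPM in TGFBRi rats in the negative cells, and 47 to 61.5 and 23.2 to 44.1 CPM in the positive cells (difference 2.07, adjusted p = 0.00542). PTGES, which makes prostaglandin E2, had 55.1 to 63.5 and 13.4 to 22 CPM in the negative, and 233 to 459 and 140.1 to 271 CPM in the positive cells (difference 1.21, adjusted p = 0.0183). DACT2 (difference 1.44), ANXA3 (1.22), GFPT2 (1.14), IL33 (0.85) and FGFR1 (0.57) were called lower in the negative cells and not called in the positive ones, and the calls of IL33 and FGFR1 ended in 6 and 7 of the 9 fits without 1 rat (differences 0.66 to 1.09 and 0.47 to 0.71). Over all genes 0.586% of the differences were called higher and 0.2% lower. In the adventitial list 3 of 27 differences were called higher and 0 lower, and in the immediate-early list 0 of 20 higher and 4 lower, with NR4A2 (-1.29), EGR1 (-0.69) and KLF4 (-0.68) among them. The call of NR4A2 ended without vehicle rat 4 (difference -0.94) and those of EGR1 and KLF4 in 7 of the 9 fits (differences -0.84 to -0.45 and -0.76 to -0.53).

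In tables of sorted basal cells from the same strain, 44 of 15982 cells passed the same rule, 0 to 22 per rat. Only 1 rat in each group reached 10 such cells, so the treatments were not compared there.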

How the data were processed

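Unsorted mammary glands of 9 SD rats (3 vehicle, 6 TGFBRi) were profiled by 10x 5' single-cell RNA-seq. The deposited tables hold raw UMI counts per gene and cell, which the authors made with Cell Ranger 7.0.0 on rn6 and Seurat 4.1.1, after filters on cells and genes. The tables had 18237 genes and no mitochondrial rows. The authors' filters removed cells with few genes, and free RNA was not removed here. No doublet was removed in the main analysis. Scrublet's own call marked few cells, 3.56% in vehicle rat 1 and 0% to 0.08% in the others, so the 6% with the highest scores were left out as an alternative. Of the positive cells, 40.6% in vehicle rat 1 held a UMI of the other-cell marker genes, against 19.3% to 33.0% in the others.

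Groups came from the labels. UMI counts of positive and of negative fibroblasts were summed per rat. Genes with at least 10 summed UMIs were tested with edgeR 4.0.16 (R 4.3.3; TMM scaling, quasi-likelihood F-test, treatment as the only term), and calls were made at 0.1 after the adjustment of Benjamini and Hochberg. The classes and the interaction were fitted jointly with the rat as a block. Shares were compared by the exact permutation test over rats. Named genes were the 10 per direction with the largest log2 fold change among those called, with a mean of at least 20 UMIs per rat and groups that did not overlap (5 per direction for the interaction, without the overlap). List examples were in part those with the highest counts and in part others chosen outside that rule. The fit was tested on simulated data. The members and lists were chosen with earlier results of these data known. Animals are separate, with 1 library each. Alternatives were DESeq2 1.42.0, RLE scaling, other count filters, other gates and UMI limits, thinning to 1300 UMIs, the replicate block and leaving out each rat. The time of day of collection is not given in the sources used here. Some genes that met these rules are not reported here.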

Additional observations from a re-analysis of the deposited data

Results flagged for a closer look

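In 10 genes the response to TGFBRi differed between PI16/DPP4 positive and negative fibroblasts by the interaction test (edgeR, 3 vehicle and 6 TGFBRi rats) and had the largest differences by the rule for named genes. Levels are CPM scaled over both classes. In the 25 sets of values of the TGFBRi rats checked for a single sample far from the others, 0 were found. The vehicle group, with 3 rats, is too small for that check, and vehicle rat 4 stood apart in several values of the report.

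In 5 genes the fold change was more positive in the positive cells. SLPI, a secreted inhibitor of serine proteases, had 1.02 to 1.76 CPM in vehicle and 0 to 92 CPM in TGFBRi rats in the positive cells and 2.20 to 58.2 and 0.659 to 11.1 CPM in the negative cells (log2 difference 7.16, adjusted p = 0.00263), with the high values in a part of the TGFBRi rats, and the difference turned to -0.90 without cells holding other-cell UMIs. CSF2, the growth factor GM-CSF, had 8.64 to 52.8 and 5.06 to 50.2 CPM in the positive and 52.2 to 144 and 1.07 to 12.4 CPM in the negative cells (difference 4.20, adjusted p = 0.00542), and the log2 fold change of 0.51 in the positive cells did not pass. The matrix metalloproteinases MMP3 (difference 2.70, adjusted p = 0.00935) and MMP10 (2.60, adjusted p = 0.0343) were lower in both classes and more so in the negative cells, where MMP3 had 23.6 to 188 and 1.34 to 5.53 CPM. The call of MMP10 ended without TGFBRi rat 11 (2.07, adjusted p = 0.227). GLDN, a protein of nerve nodes, had a difference of 3.64 (adjusted p = 0.0915), and its call ended in 6 of the 9 fits without 1 rat (differences 3.10 to 3.93). It was near the floor in the positive cells, with 5 UMIs in all vehicle and 41 in all TGFBRi rats, and its log2 of 2.22 did not pass there. In the negative cells it had 20.0 to 42.5 CPM in vehicle and 7.27 to 21.3 CPM in TGFBRi rats.

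In 5 genes it was more negative. MSLN, a mesothelial surface protein, had 1.02 to 6.07 and 0 to 0.59 CPM in the positive and 0.118 to 6.17 and 0.427 to 6.11 CPM in the negative cells (difference -4.71, adjusted p = 0.0301). KRT7 had a difference of -3.56 (adjusted p = 0.0262) and was called lower in the negative cells too (log2 -2.19). Without the 6% highest Scrublet scores neither passed, with differences of -1.22 for MSLN and -1.80 for KRT7. FGF16, a fibroblast growth factor, had 5.59 to 7.78 and 5.69 to 17.3 CPM in the positive and 0.464 to 2.20 and 6.89 to 14.4 CPM in the negative cells (difference -2.76, adjusted p = 0.0145, and -2.08 with adjusted p = 0.101 without vehicle rat 4). CHMP4C, of the membrane-scission complex ESCRT-III, had -2.17 (adjusted p = 0.0391, and -1.82 with adjusted p = 0.155 without vehicle rat 1), and its difference turned to 0.40 without the highest Scrublet scores and 0.79 without other-cell UMIs. It was near the floor in the positive cells, with 43 UMIs in all vehicle and 15 in all TGFBRi rats. TEAD2, a partner of YAP, had -1.96 (adjusted p = 0.0463, and -1.39 with adjusted p = 0.225 without vehicle rat 1). It had 2.15 to 8.13 and 1.42 to 2.95 CPM in the positive cells, where its log2 of -1.065 did not pass. In the negative cells it was called higher, with 6.56 to 9.09 and 12.9 to 18.3 CPM (log2 0.97).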

How the results depend on the processing

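Leaving out 1 rat at a time moved the share of positive fibroblasts from -2.17 to 0.31 percentage points among all cells and from -1.59 to 0.86 among gated fibroblasts, that with a PI16 UMI from -10.02 to 0.23, that with a DPP4 UMI from -1.23 to 14.0 and that with G2/M UMIs from -7.74 to -1.17. The difference among gated fibroblasts turned to 0.97 points with at least 1 UMI of PI16 and DPP4, to 0.41 without the highest Scrublet scores and to 0.0197 after thinning, and that of PI16 to 0.17 after thinning. For the thinned shares the positive cells were picked anew from the thinned counts. The shares among all cells, among gated fibroblasts and with G2/M UMIs did not pass the test in the main analysis.

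The 1762 genes called for TGFBRi became 268 after thinning (71 higher and 197 lower, where the main split was 759 and 1003), 607 with the replicate block (225 higher and 382 lower), 894 in cells holding both PI16 and DPP4 (chosen after seeing the data), 5075 in all gated fibroblasts, and 972 to 3540 without 1 rat. The replicate numbers were not shown to pair the rats, since same-numbered rats correlated at 0.05, 0.03 and 0.12. The other alternatives gave 1284 to 1824. The 7387 genes between the classes became 4159 after thinning and 6631 to 7334 without 1 rat. The 122 interaction genes became 201 with DESeq2, 209 with no filter, 248 without cells holding other-cell UMIs, 67 after thinning (34 higher and 33 lower, where the main split was 91 and 31) and 79 to 170 without 1 rat. Signs turned for CLDN3 (0.21), IL11 (0.99) and INHBA (0.0850) in cells holding both genes, PRSS22 (0.46) without other-cell UMIs, SKI (-0.00057) after thinning, COL6A2 between the classes (-0.0301) with the gate on DCN and PDGFRA, and in the interaction CHMP4C (0.40 without the highest Scrublet scores, 0.79 without other-cell UMIs) and SLPI (-0.90 without other-cell UMIs). The cause was not tested. Of 93 called genes named in the text, 43 kept the call in all 9 fits without 1 rat.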

Other observations

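Genes of the circadian clock, looked at after DBP and PER3 were seen, moved in both directions in the positive fibroblasts. DBP (log2 2.57) and PER3 (log2 1.46) were also called higher in the negative fibroblasts, and the interaction was called for neither. The clock output TEF had 9.29, 7.20 and 4.66 CPM in vehicle rats 1, 2 and 4 and 12.8, 16.8 and 22.9 CPM as the lowest, median and highest of the TGFBRi rats (log2 1.37, adjusted p = 0.00825 by edgeR). PER2 had a log2 of 1.27 and CRY2 of 1.02, and these repressors of the clock were also called higher, as was NR1D1 (1.07, whose call ended in 3 of the 9 fits without 1 rat, with log2 0.64 to 1.49). PER1 (1.04, adjusted p = 0.0707) and NR1D2 (0.73, adjusted p = 0.0907) were also called higher by edgeR, with calls that ended in 5 and 7 of the 9 fits. The activators ARNTL (-1.52) and NPAS2 (-1.03) were called lower, the first not without vehicle rat 1 (-1.43) or 2 (-0.98), the second not without vehicle rat 2 (-0.75). CLOCK, CRY1, RORA, CIART and BHLHE40 were not called. The time of collection of each rat was not used here, so it and the treatment cannot be told apart.

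HMOX1 and NQO1, targets of the oxidative-stress factor NRF2, were also chosen after their values were seen. HMOX1, which degrades haem, had 8026, 7431 and 1079.5 CPM against 614, 1189 and 1544 CPM (log2 -2.29), with vehicle rat 4 inside the TGFBRi range. NQO1, a quinone reductase, had 396, 311 and 224 CPM against 77.1, 98.8 and 127 CPM (log2 -1.63, SE 0.181, adjusted p = 0.000404), with every TGFBRi rat below every vehicle rat.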
